A study of Mus musculus with 8 samples.

Results

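Cytotoxic CD8 T cells and natural killer (NK) cells kill target cells by releasing granules that carry the pore-forming protein perforin and proteases called granzymes. A set of 10 genes that mark these cells was read in RNA sequencing of sorted mouse regulatory T (Treg) cells, which are CD4 T cells that hold other immune cells in check. The genes were Nkg7, Ccl5, Cd8a, Cd8b1, Gzma, Gzmb, Prf1, Klrd1, Klrk1 and Eomes, taken by gene name from a deposited table of 57180 genes. All 10 had a row. They mark cells other than those the sort was set for, and were read library by library.

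The study's samples are 3 chimera KO and 5 chimera WT libraries of Treg cells, sorted from different mice by the series' design text. The labels name neither the deleted gene nor the strain, age or treatment of the mice, nor how the chimeras were made, so the groups are called KO-labelled and WT-labelled. Nothing ties a library to 1 animal, and p-values cover only the spread among the libraries, which may be technical. By its title, the series is about copper in Treg cell suppression.

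NK and CD8 T cells share much of this gene set. CD8 is a surface receptor of an alpha chain (Cd8a) paired with a second alpha or a beta chain (Cd8b1), and CD8 T cells carry it in place of CD4. Klrd1 encodes CD94, which pairs with receptors of the NKG2A and NKG2C type, and Klrk1 encodes the activating receptor NKG2D. Eomes is a T-box transcription factor of cytotoxic lymphocytes. Treg cells themselves can express some of these genes, among them Gzmb and Ccl5, so a transcript does not identify its cell of origin. In sorted cells measured in bulk, fewer cells of a type and less RNA per cell cannot be told apart.

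The libraries differed in depth and content. Totals were 4.31 to 8.48 mega counts (M) in the KO-labelled and 10.5 to 18.0 M in the WT-labelled libraries. At 10 counts or more, 12491 to 14318 genes were detected per KO-labelled library and 8250 to 14090 per WT-labelled one, with the lowest number in WT-labelled replicate 4, the deepest library. That library and WT-labelled replicate 5 stood apart from the others in the marker lists described below. Levels are given as normalised CPM, counts as a share of the library total that are further scaled between libraries with TMM factors. These factors were 0.4 in WT-labelled replicate 4, which raises its values, and 0.689 to 1.49 elsewhere. Of the markers of the sorted cells, Cd4 had 128, 106 and 99.5 normalised CPM in KO-labelled replicates 1 to 3 and 159, 176, 206, 86.3 and 239 in WT-labelled replicates 1 to 5. Foxp3, which encodes the transcription factor that defines Treg cells, had 26.6, 2.69 and 24.2 in the KO-labelled and 11.9, 36.6, 41.9, 3.09 and 1.26 in the WT-labelled libraries. Foxp3 was thus lowest in WT-labelled replicates 4 and 5 and in KO-labelled replicate 2, where it rested on 18 counts in the KO-labelled library and on 22 and 9 in the WT-labelled ones.

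The 10 genes did not rise and fall as a block. Each of the 9 genes that reached at least 100 counts in some library had its highest level in a WT-labelled library, against 75.0% of the 13289 genes of that abundance. Of these 9, 5 were highest in WT-labelled replicate 4 (Nkg7, Ccl5, Cd8b1, Gzma and Klrd1), against 25.6% of such genes. Gzmb and Eomes were highest in WT-labelled replicate 3, and Prf1 and Klrk1 in WT-labelled replicate 5. A single library held over 90% of the summed level of 4 of the 9 (Gzma, Gzmb, Klrd1 and Eomes), against 7.81% of the genes of that abundance. Without WT-labelled replicate 4, 7 members still reached 100 counts, and 2 of them, Gzmb and Eomes, had over 90% in 1 library, against 7.23% of genes. A single library held over 50% for all 9, against 40.0% of genes. Of the same 9, 6 (Ccl5, Gzma, Gzmb, Prf1, Klrd1 and Eomes) had under 10 counts in every KO-labelled library, against 8.44% of genes, and 4 of these (Gzma, Gzmb, Prf1 and Klrd1) had 0, against 2.78%. In WT-labelled replicate 4, 4 of the 9 (Gzmb, Prf1, Klrk1 and Eomes) were at 0 counts, against 26.2% of genes. The KO-labelled libraries were shallower. After thinning to their lowest total, the highest WT-labelled counts of the 6 genes were 104 (Eomes) to 2686 (Gzma). The part of depth in the low KO-labelled counts was not tested. These 6 genes reached 100 counts only in WT-labelled libraries, so they entered the 9 through the group where they were high. Cd8a, which never reached 100 counts, had its highest level in KO-labelled replicate 3. The counts of members in this paragraph are therefore descriptions and no test of the groups.

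**Figure D1:**
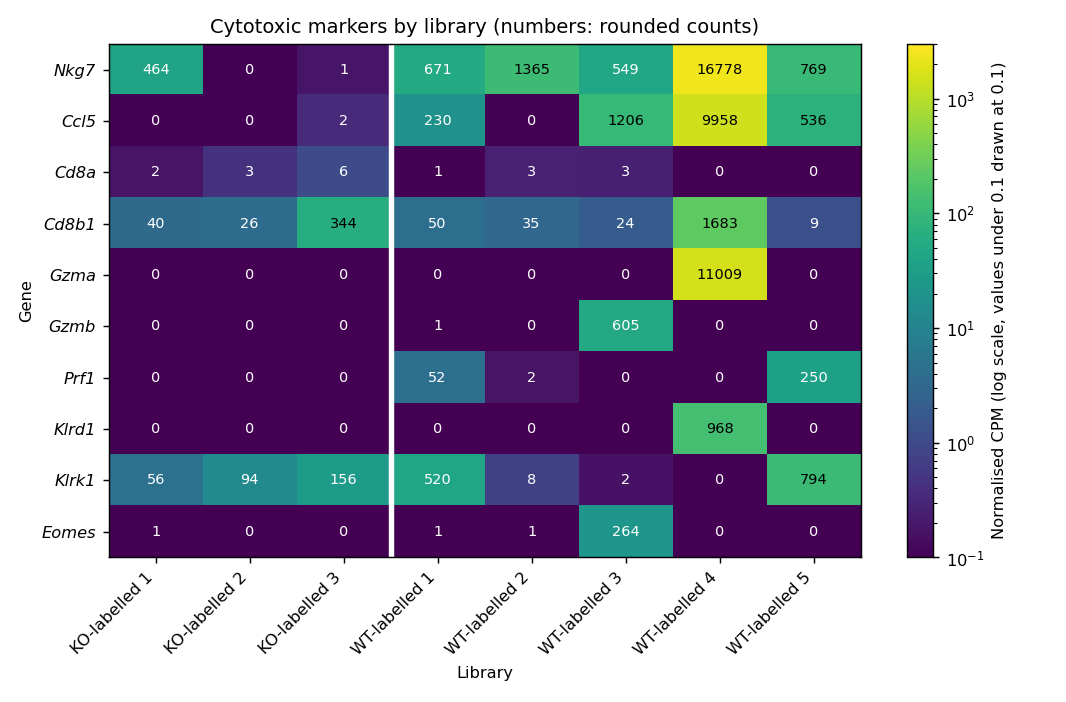
Heat map of the 10 cytotoxic genes (rows) in the 3 KO-labelled and 5 WT-labelled libraries (columns). Colour gives normalised CPM on a log scale and the numbers are counts rounded to whole numbers. WT-labelled replicate 4 holds 16778 counts of Nkg7 and 11009 of Gzma, while its Gzmb, Prf1, Klrk1 and Eomes are at 0.

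Summed over the 10 genes, the level was 49.2, 18.4 and 91.1 normalised CPM in KO-labelled replicates 1 to 3, and 127, 123, 223, 5675 and 329 in WT-labelled replicates 1 to 5. Every KO-labelled sum lay below every WT-labelled sum. With TMM factors the same held for the granule, T cell receptor and CD3, CD4 and Treg, and B cell lists described below, while the other lists overlapped. It was thus not particular to the cytotoxic genes. The sums rested on different genes, mainly Cd8b1 (61.6) and Klrk1 (27.9) in KO-labelled replicate 3 and Nkg7 (118) in WT-labelled replicate 2. As CPM of the library total, with no scaling between libraries, the 10 genes summed to 66.4, 26.9 and 118 in the KO-labelled libraries. In the WT-labelled ones they summed to 144, 133, 237, 2247 and 224, so the order of the groups for the members did not rest on the TMM factors. The granule list and the T cell receptor and CD3 list also kept that order without scaling. The CD4 and Treg list then overlapped (4001 in KO-labelled replicate 1 against 1569 in WT-labelled replicate 4). So did the B cell list (263 in KO-labelled replicate 1 against 229 in WT-labelled replicate 1). The number of members at 10 counts or more was 3, 2 and 2 in the KO-labelled libraries and 5, 2, 5, 5 and 4 in the WT-labelled ones. These numbers were the same after all libraries were thinned to the total of the shallowest.

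Per kilobase of gene length, Nkg7 and Ccl5 had the highest mean levels of the members in the WT-labelled libraries. Nkg7 averaged 15.4 normalised CPM per kilobase in the KO-labelled and 609 in the WT-labelled libraries, and Ccl5 averaged 0.224 and 599. Nkg7 (ENSMUSG00000004612, chromosome 7, 43437073 to 43438249, plus strand) encodes a membrane protein of cytotoxic granules. Its counts were 464, 0 and 1 in KO-labelled replicates 1 to 3 and 671, 1365, 549, 16778 and 769 in WT-labelled replicates 1 to 5. In normalised CPM these were 40.6, 0 and 0.179 in the KO-labelled and 55.7, 118, 46.2, 2357 and 107 in the WT-labelled libraries. All 5 WT-labelled libraries thus held Nkg7 transcripts, and KO-labelled replicate 1 was near the lower end of them while replicates 2 and 3 were at or near 0. The groups did not overlap on this scale, as for 4.49% of all genes tested with lower values in KO-labelled libraries. They did overlap without TMM factors, where KO-labelled replicate 1 stood at 54.7 CPM and WT-labelled replicate 3 at 49.1. Nkg7 averaged 13.6 ± 23.4 normalised CPM in KO-labelled and 537 ± 1018 in WT-labelled libraries (SD, n = 3 and n = 5). The log2 change was −5.30 (SE 2.44, 95% interval −10.7 to 0.15), and edgeR's quasi-likelihood test across the whole table gave an adjusted p of 0.351. Without WT-labelled replicate 4 it was −2.59 (SE 1.88, adjusted p = 0.492), and without KO-labelled replicate 1 it was −12.5 (SE 3.17, adjusted p = 0.261).

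Ccl5 (ENSMUSG00000035042, chromosome 11, 83525778 to 83530518, minus strand) encodes a chemokine that draws T cells and other leukocytes and is made by memory and effector lymphocytes. It had 0, 0 and 2 counts in KO-labelled replicates 1 to 3, and 230, 0, 1206, 9958 and 536 in WT-labelled replicates 1 to 5. The corresponding levels were 0, 0 and 0.358 normalised CPM in the KO-labelled and 19.1, 0, 101, 1399 and 74.8 in the WT-labelled libraries. The groups overlapped, since WT-labelled replicate 2 had no Ccl5 count despite its 1365 counts of Nkg7. A count of 0 allows up to 3 counts, which is 0.249 to 0.537 normalised CPM in these libraries. The fitted log2 change was −11.5 (SE 3.37, unadjusted p = 0.00691, adjusted p = 0.325 in edgeR). Its size depends on how the fit treats counts near 0 and is no bound. Without WT-labelled replicate 4 it was −8.70 (SE 2.83, adjusted p = 0.271).

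The CD8 chain genes differed in level. Cd8a (ENSMUSG00000053977, chromosome 6, 71373427 to 71379173, plus strand) had 2, 3 and 6 counts in KO-labelled replicates 1 to 3 and 1, 3, 3, 0 and 0 in WT-labelled replicates 1 to 5. All 8 values lie at or near the 3 counts that a count of 0 allows. It was at 0 in WT-labelled replicate 4, where 5 of the 10 members were highest. Cd8b1 (ENSMUSG00000053044, chromosome 6, 71322788 to 71337494, plus strand) had 40, 26 and 344 counts in the KO-labelled and 50, 35, 24, 1683 and 9 in the WT-labelled libraries. Its levels were 3.50, 3.89 and 61.6 normalised CPM in the KO-labelled and 4.15, 3.03, 2.02, 236 and 1.26 in the WT-labelled libraries. WT-labelled replicate 4 and KO-labelled replicate 3 stood above the other 6 libraries, which lay between 1.26 and 4.15.

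Per kilobase of gene length, Cd8b1 stood at 2.36, 2.62 and 41.5 normalised CPM in KO-labelled replicates 1 to 3, and at 2.80, 2.05, 1.36, 159 and 0.847 in WT-labelled replicates 1 to 5. Cd4 stood at 41.2, 34.1 and 32.0 per kilobase in the KO-labelled and 51.0, 56.5, 66.4, 27.8 and 77.0 in the WT-labelled libraries. The ratio of Cd8b1 to Cd4 was 0.0577, 0.0766 and 1.30 in the KO-labelled libraries and 0.0543, 0.0365, 0.0205, 5.74 and 0.0106 in the WT-labelled ones. Cd8b1 thus exceeded Cd4 per kilobase in KO-labelled replicate 3 and WT-labelled replicate 4, and stood far below it in the other libraries. The ratio of Cd8b1 to Cd8a was 42.5, 17.5 and 121 in the KO-labelled libraries and 104, 24.5 and 16.8 in WT-labelled replicates 1 to 3, resting on 1 to 6 Cd8a counts. In WT-labelled replicates 4 and 5 Cd8a was listed at 0.

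**Figure D2:**
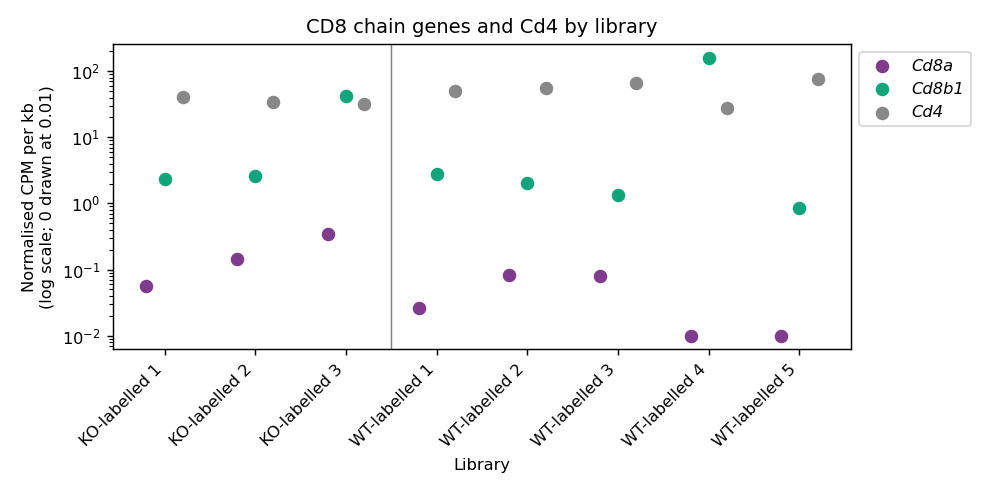
Level per kilobase of Cd8a, Cd8b1 and Cd4 (normalised CPM per kilobase, log axis) in the 3 KO-labelled and 5 WT-labelled libraries, with 1 point per gene and library and values of 0 drawn at 0.01. Cd8b1 lies above Cd4 in KO-labelled replicate 3 (41.5 against 32.0) and WT-labelled replicate 4 (159 against 27.8), and Cd8a lies below both in every library.

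Part of the Cd8b1 transcript is not unique. Of its 1434 stretches of 50 bases in the GENCODE M21 annotation, 90 (6.28%) also occur in transcripts of 53 other genes, on either strand. These stretches cover 143 bases, all in the 3′ untranslated region. The estimated counts of Cd8b1 were not whole, as with 40.32 in KO-labelled replicate 1 and 1682.62 in WT-labelled replicate 4, so they are not plain read numbers, and the low values in the 6 other libraries are uncertain. Cd8a shares 3 stretches of 50 bases with 1 other gene, Eomes 87 with 124 other genes, and the other 7 members share none. The log2 change of Cd8b1 was −1.10 (SE 1.97, 95% interval −5.51 to 3.30, adjusted p = 0.768 in edgeR), and its sign turned without TMM factors (0.53) and without WT-labelled replicate 4 (3.13, SE 1.28, adjusted p = 0.312).

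The genes of the granule contents had 88.6% (Prf1), 99.8% (Gzmb) and all (Gzma) of their summed level in 1 library, and each in a different one. Their promoters are shown with those of Nkg7 because these genes of the granule pathway had their highest levels in different libraries. Sequences are the bases before the annotated transcription start in RefSeq (GRCm38.p6), 5′ to 3′, cut where GENCODE places the start further upstream. Capitals mark the T-box core AGGTGT, bound by factors such as that of Eomes, and the RUNX core TGTGGT, each on either strand.
Nkg7 (chr7:43436888-43437072, plus strand): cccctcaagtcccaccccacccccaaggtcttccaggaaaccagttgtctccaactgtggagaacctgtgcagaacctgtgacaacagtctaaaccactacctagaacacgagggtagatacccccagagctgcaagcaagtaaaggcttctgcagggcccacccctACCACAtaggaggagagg
Gzma (chr13:113100982-113101231, minus strand): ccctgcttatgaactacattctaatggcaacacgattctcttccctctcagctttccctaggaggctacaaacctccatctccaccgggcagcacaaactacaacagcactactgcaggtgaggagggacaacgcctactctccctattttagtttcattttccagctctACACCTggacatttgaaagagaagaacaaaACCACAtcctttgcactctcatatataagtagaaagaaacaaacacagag
Gzmb (chr14:56262335-56262584, minus strand): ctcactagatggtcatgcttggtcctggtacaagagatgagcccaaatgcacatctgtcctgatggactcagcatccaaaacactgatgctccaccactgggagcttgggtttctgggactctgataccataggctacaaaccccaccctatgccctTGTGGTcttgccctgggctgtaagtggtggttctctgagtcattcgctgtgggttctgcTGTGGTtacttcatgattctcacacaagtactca
Prf1 (chr10:61297586-61297832, plus strand): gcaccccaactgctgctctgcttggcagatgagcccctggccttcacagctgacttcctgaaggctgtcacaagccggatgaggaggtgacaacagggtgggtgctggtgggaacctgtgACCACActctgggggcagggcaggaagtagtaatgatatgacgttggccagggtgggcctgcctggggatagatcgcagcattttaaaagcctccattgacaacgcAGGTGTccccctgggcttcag

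In the full windows of 250 bases before the RefSeq start, the T-box core was found for 3 of the 7 members in the promoter table (Nkg7, Gzma and Prf1), and in 11.8% of all 32851 windows. The match of Nkg7 lies in the 65 bases that GENCODE counts as transcribed and is not printed. The RUNX core was found for 5 of the 7 (Nkg7, Gzma, Gzmb, Prf1 and Klrk1), and in 14.0% of all windows. A palindrome bound by STAT factors, TTCNNNGAA, was found for Nkg7 alone among the 7 and in 7.02% of windows, and the TATA box TATAAA for 0 of the 7 and in 12.4% of windows. The capitalised matches do not overlap with each other. Ccl5, Cd8b1 and Klrd1 were not in the table.

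Gzma (ENSMUSG00000023132, chromosome 13, 113093825 to 113100981, minus strand) encodes granzyme A, a protease of cytotoxic granules. It had 11009 counts in WT-labelled replicate 4 and 0 counts in each of the other 7 libraries, KO-labelled and WT-labelled alike. At 1547 normalised CPM in that library, it was at least 2880-fold higher than the largest level that 3 counts would give in any of the others, and at least 881-fold higher without TMM factors. After thinning to the shallowest total, 2686 counts remained. Gzmb (ENSMUSG00000015437, chromosome 14, 56258838 to 56262260, minus strand) encodes granzyme B, which enters target cells and activates caspases. It was at 0 counts in all 3 KO-labelled libraries, and at 1, 0, 605, 0 and 0 in WT-labelled replicates 1 to 5. Its level in WT-labelled replicate 3 was 50.9 normalised CPM. The library with Gzma thus had no Gzmb, and the library with Gzmb had no Gzma.

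Prf1 (ENSMUSG00000037202, chromosome 10, 61297833 to 61304680, plus strand) encodes perforin. It was at 0 counts in all 3 KO-labelled libraries, and at 52, 2, 0, 0 and 250 in WT-labelled replicates 1 to 5. Its highest level, 34.9 normalised CPM, was in WT-labelled replicate 5, where neither granzyme gene had a count. WT-labelled replicate 4, with the highest Nkg7 and Gzma, had no Prf1 count in 18.0 M counts, which allows up to 3. Gzma, Gzmb and Prf1 did not pass the count filter and were not tested with it. In the fit without a filter, their unadjusted p was 0.00667, 0.0187 and 0.0125, and their adjusted p 0.333, 0.34 and 0.337 in edgeR.

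The NK receptor genes among the members were likewise split between libraries. Klrd1 (ENSMUSG00000030165, chromosome 6, 129591782 to 129598775, plus strand) had 968 counts in WT-labelled replicate 4 and 0 in each of the other 7 libraries. That is 136 normalised CPM and at least 253-fold above the largest level that 3 counts would give elsewhere, and at least 77.4-fold without TMM factors. Klrk1 (ENSMUSG00000030149, chromosome 6, 129610323 to 129623864, minus strand) lies in the same gene cluster and had 56, 94 and 156 counts in KO-labelled replicates 1 to 3, and 520, 8, 2, 0 and 794 in WT-labelled replicates 1 to 5. Its levels were 4.90, 14.1 and 27.9 normalised CPM in the KO-labelled and 43.2, 0.694, 0.168, 0 and 111 in the WT-labelled libraries. Klrk1 and Cd8b1 were the members with at least 10 counts in all 3 KO-labelled libraries, and for Klrk1 the WT-labelled libraries lay on both sides of them. The log2 change was −0.99 (SE 2.10, 95% interval −5.69 to 3.72, adjusted p = 0.806 in edgeR), and 0.69 (SE 2.02, adjusted p = 0.875) without WT-labelled replicate 5.

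Eomes (ENSMUSG00000032446, chromosome 9, 118478212 to 118486132, plus strand) had 1, 0 and 0 counts in KO-labelled replicates 1 to 3, and 1, 1, 264, 0 and 0 in WT-labelled replicates 1 to 5. Its level in WT-labelled replicate 3 was 22.2 normalised CPM, the library that also held Gzmb. An antisense gene, Gm33460, shares 118 exonic bases with Eomes, 2.8% of its exonic length, and the kit used here does not mark strand. WT-labelled replicates 4 and 5, which had the highest summed levels of the members with TMM factors, had no Eomes count. Without these factors WT-labelled replicate 3, which held Eomes, stood above replicate 5 in that sum (237 against 224 CPM). In the fit without a filter its unadjusted p was 0.0334, that of Klrd1 0.0159 and that of Cd8a 0.222, with adjusted p of 0.356, 0.337 and 0.508 in edgeR.

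Between the groups, 0 of the 4 members that passed the count filter (Nkg7, Ccl5, Cd8b1 and Klrk1) were called by edgeR, against 0.0% of 14755 genes tested. At an unadjusted p under 0.05, 1 of the 4 passed (Ccl5, lower in KO-labelled libraries), against 14.4% of all genes in either direction and 6.43% in that direction. All 4 log2 changes were negative, as were 56.8% of those of all genes, whose median was −0.42. That median moved with the scaling, to 0.21 with library totals. DESeq2 called 16.4% of the genes but set the p of Nkg7, Ccl5 and Cd8b1 aside for outlying counts, and did not call Klrk1 (adjusted p = 0.631). The limma-voom fit with quality weights called 0.149% of genes and 0 of the 4. The 95% intervals of Nkg7, Cd8b1 and Klrk1 include 0, and that of Ccl5 runs from −19.0 to −3.94.

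**Figure D3:**
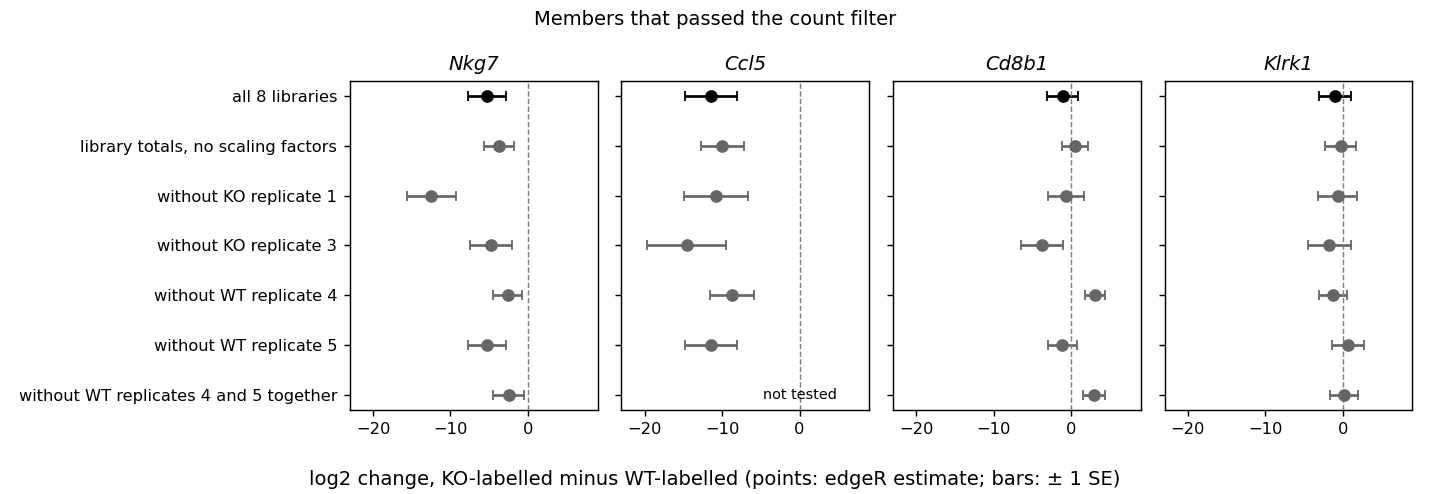
The log2 change (KO-labelled minus WT-labelled) of the 4 members that passed the count filter, as points with bars of 1 SE from edgeR, with all 8 libraries and under 6 other settings. Nkg7 and Ccl5 lie below 0 in each setting drawn in which they were tested, while Cd8b1 and Klrk1 lie on either side of it.

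Genes that work with the members were read from 3 further lists. The counts given for each list stand against 56.8% of all genes with a negative log2 change and 14.4% with an unadjusted p under 0.05 (6.43% lower in KO-labelled libraries). In the list of NK cell receptors and adaptors, 4 of 24 genes passed the count filter, 1 with a positive and 3 with negative log2 changes (median −3.24), 0 were called and 2 had an unadjusted p under 0.05. The list summed to 106, 169 and 76.4 normalised CPM in the KO-labelled and 159, 168, 236, 2437 and 672 in the WT-labelled libraries. Its most abundant genes were the signalling adaptors Hcst, the partner of NKG2D, and Fcer1g. Hcst had 69.8, 162 and 51.2 normalised CPM in the KO-labelled and 157, 128, 169, 1343 and 364 in the WT-labelled libraries, and Fcer1g 0, 0 and 20.4 in the KO-labelled and 0, 35.6, 21.4, 480 and 124 in the WT-labelled libraries. Ncr1, which encodes the NK cell receptor NKp46, had 0 counts in all 8 libraries, as had 3 others of the 24 genes (Klrc1, Klri1 and Klra3). Chosen after its values were seen, Klrc2, which encodes the CD94 partner NKG2C, had 78.7 normalised CPM in WT-labelled replicate 4, the library with Klrd1, and at most 0.504 in the other 7. The adaptor gene Tyrobp, chosen in the same way, had 0 in all 3 KO-labelled libraries and 0, 0, 43.0, 528 and 100 in the WT-labelled ones. Klrb1c, which encodes NK1.1 and was also chosen after its values were seen, had its highest value in a KO-labelled library. It had 16.2 in replicate 1 and at most 0.358 elsewhere. Genes of the Klr families are close relatives, so counts could be divided among them.

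Granule and secretion genes were present in every library. Of 15 genes, 12 passed the filter, 1 with a positive and 11 with negative log2 changes (median −1.56), 0 were called and 2 had an unadjusted p under 0.05. The list summed to 675, 571 and 481 normalised CPM in the KO-labelled and 1152, 1313, 1290, 4416 and 2884 in the WT-labelled libraries, with no overlap between the groups. Without TMM factors the list was highest in WT-labelled replicate 5, at 1960 CPM against 1749 in WT-labelled replicate 4. Srgn, which encodes the granule proteoglycan serglycin and is expressed in many leukocytes, had 201 ± 89.5 normalised CPM in KO-labelled and 1155 ± 853 in WT-labelled libraries (SD, n = 3 and n = 5; adjusted p = 0.325 in edgeR). Unc13d, needed for granule release, had 125 ± 31.3 in KO-labelled and 218 ± 119 in WT-labelled libraries (adjusted p = 0.517 in edgeR). Gzmk was at 0 counts in all 8 libraries.

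Of 18 cytotoxic regulators and cytokines, 11 passed the filter, 2 with positive and 9 with negative log2 changes (median −3.45), 0 were called and 2 had an unadjusted p under 0.05. They summed to 436, 280 and 116 normalised CPM in the KO-labelled and 417, 706, 960, 2287 and 1349 in the WT-labelled libraries. Without TMM factors the sum was highest in WT-labelled replicate 3, at 1022 CPM against 906 in WT-labelled replicate 4. Stat4, a transcription factor gene of interleukin-12 signalling, had 54.9 ± 34.1 in KO-labelled and 427 ± 373 in WT-labelled libraries, and Il2rb, the receptor chain for interleukin-2 and interleukin-15 that Treg cells also carry, 169 ± 121 and 262 ± 52.0 (adjusted p = 0.325 and 0.588 in edgeR). Zfp683, Ccl4 and Xcl1 were at 0 counts in all 8 libraries. Chosen after their values were seen, Tbx21, the gene of the T-box factor T-bet, had 147 counts in WT-labelled replicate 5 and 0 in the other 7 libraries. Ifng had 3.76, 0 and 0 normalised CPM in the KO-labelled and 11.5, 0, 34.0, 295 and 73.7 in the WT-labelled libraries, highest in the library with Gzma and Klrd1.

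With TMM factors, the lists of markers of other cells were also highest in WT-labelled replicate 4 or 5. No such list was highest in 1 of these and next highest in the other, as the members were. That order was not particular to the members, since the NK, granule, regulator, and T cell receptor and CD3 lists shared it with TMM factors. For the members it was lost without these factors, where WT-labelled replicate 3 stood above replicate 5 (237 against 224 CPM). Without TMM factors the myeloid list was highest in WT-labelled replicate 3. The B cell list of 10 genes summed to 195, 127 and 82.3 normalised CPM in the KO-labelled and 201, 333, 559, 3401 and 338 in the WT-labelled libraries, with 7 of its genes at 10 counts or more in WT-labelled replicate 4 and fewer in the others. Pax5, a defining B cell transcription factor gene, had 3 counts in WT-labelled replicate 4. In that library Ighm had 13507 counts and Ms4a1 4682. The erythroid list summed to 3.06, 0.449 and 7.34 in the KO-labelled and 0.581, 22.2, 3.95, 0 and 9102 in the WT-labelled libraries, of which Hba-a1 and Hbb-bs had 25587 and 22887 counts in WT-labelled replicate 5. The list of gamma-delta and innate-like T cells summed to 13.3, 2.39 and 3.04 in the KO-labelled and 48.5, 39.9, 0.925, 3.79 and 294 in the WT-labelled libraries, highest in WT-labelled replicate 5, where Trgc1, a gamma chain constant gene, had 1599 counts while Trdc, its delta chain counterpart, had 0. Trdc was highest in WT-labelled replicate 2, with 450 counts. The myeloid list summed to 19.6, 72.1 and 55.8 in the KO-labelled and 13.0, 57.8, 135, 298 and 8.79 in the WT-labelled libraries, where S100a9 had 1348 counts in WT-labelled replicate 4 and Lyz2, a defining gene, had 0. The part of these cells in the levels of the cytotoxic genes was not tested.

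Of the other lists, 6 of 10 B cell, 6 of 10 myeloid, 2 of 7 erythroid and 1 of 8 gamma-delta genes passed the filter. Negative log2 changes numbered 5, 3, 2 and 1 among these, against 56.8% of all genes, with medians of −4.68, −0.13, −9.47 and −1.13. At an unadjusted p under 0.05 in edgeR there were 3, 0, 1 and 0, against 14.4% of all genes in either direction. In each list edgeR called 0, against 0.0% of all genes.

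**Figure D4:**
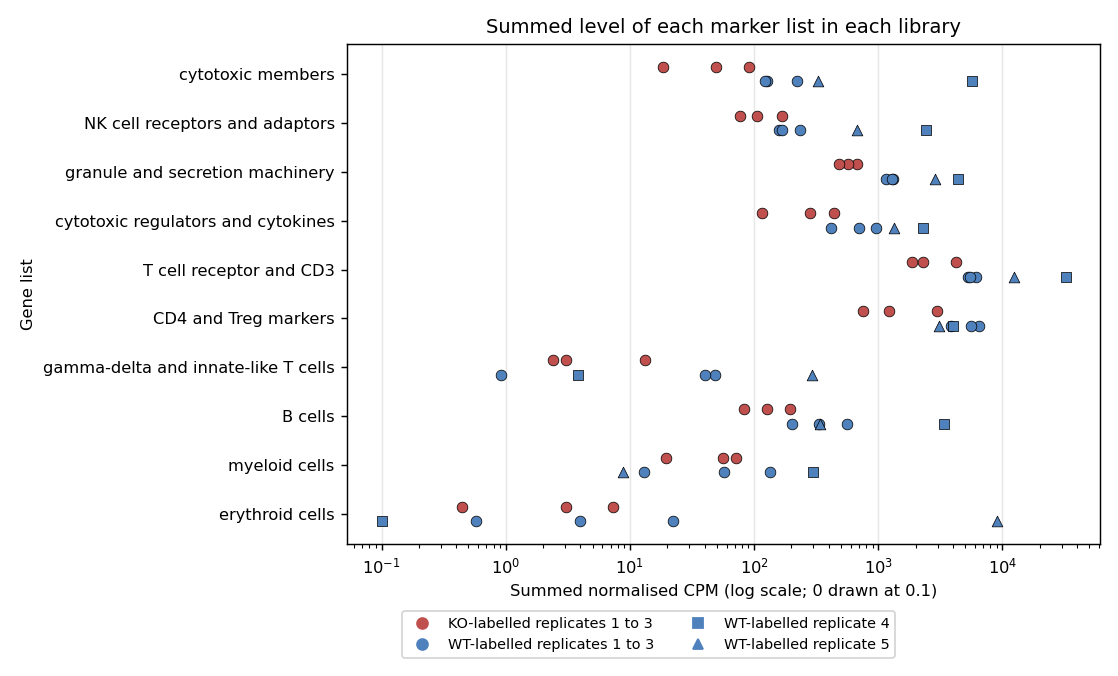
Summed normalised CPM (log axis) of the 10 cytotoxic members and 9 other gene lists, 1 point per library, with KO-labelled libraries above WT-labelled ones in each row and a sum of 0 drawn at 0.1. WT-labelled replicate 4 (square) is highest for the members, at 5675, and for the B cell list, at 3401, and WT-labelled replicate 5 (triangle) is highest for the erythroid list, at 9102.

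Genes of the T cell receptor and its signalling were split in WT-labelled replicates 4 and 5. The 12 T cell receptor and CD3 genes summed to 4204, 2309 and 1871 normalised CPM in the KO-labelled and 6167, 5293, 5513, 32630 and 12366 in the WT-labelled libraries, and all 12 had negative log2 changes (median −2.07, 0 called, 8 at an unadjusted p under 0.05, against 56.8% negative and 14.4% at that p among all genes). Cd3g had 280 ± 158 in KO-labelled and 1925 ± 2186 in WT-labelled libraries and Trbc2 585 ± 270 and 2445 ± 2442 (adjusted p = 0.325 for both in edgeR). The 8 CD4 and Treg markers summed to 2967, 1212 and 752 in the KO-labelled and 3859, 6450, 5611, 3963 and 3065 in the WT-labelled libraries, with 8 negative log2 changes (median −1.10, 0 called, 2 at an unadjusted p under 0.05). Ikzf2 had 927 ± 654 in KO-labelled and 2344 ± 1847 in WT-labelled libraries and Ctla4 184 ± 150 and 657 ± 227 (adjusted p = 0.492 and 0.325 in edgeR). In WT-labelled replicate 4 the T cell receptor and CD3 sum was 2.64-fold above the next library, and 1.54-fold without TMM factors. The genes of that list did not move together, as seen in Cd28 and Zap70, which were chosen after their values were seen. Cd28, a costimulatory receptor gene, had 143 and 277 normalised CPM in WT-labelled replicates 4 and 5 against 707 to 1166 in replicates 1 to 3. Zap70, a kinase gene of receptor signalling, had 5.34 and 1.26 against 61.7 to 89.2. The sum of the CD4 and Treg markers in WT-labelled replicate 4 lay within the range of the other WT-labelled libraries with TMM factors and below all of them without, at 1569 CPM against 2084 to 6976. Ikzf2 was lowest there, at 81.1 normalised CPM. Tnfrsf18, which encodes the receptor GITR and was chosen after its values were seen, was highest there, at 1356.

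Across the 8 libraries, the protein-coding genes whose log2 level was most like that of the summed members were Ptprcap, Cd74, Swi5, Churc1 and Ndufb5, with Pearson's r of 0.989, 0.982, 0.981, 0.977 and 0.976 among 8124 genes compared. Ptprcap encodes a protein bound to the phosphatase CD45, Cd74 the invariant chain of MHC class II, and Ndufb5 a subunit of respiratory complex I. Without WT-labelled replicate 4 the values were 0.974, 0.935, 0.956, 0.925 and 0.918. These are descriptions over libraries that share their sort, kit and scaling, and WT-labelled replicate 4 was the highest for each of the 5 genes.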

How the data were processed

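RNA was sequenced from sorted Treg cells, and the labels' protocols describe a low-input kit that copies whole transcripts. The authors deposited expected counts, which are estimates and often fractional, and gene length was taken as a length score in bases from the deposited table. Per the submitters' processing notes, the tools were DESeq2, RSEM, StringTie, HISAT2 and fastp, on mm10, with no roles or versions listed. Which annotation they used is not given. The authors' group means were not used, and 0 columns belonged to other samples. Counts are not stranded.

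Counts were rounded. In R 4.3.3, edgeR 4.0.16 (filterByExpr, TMM, quasi-likelihood test, two-sided, Benjamini-Hochberg adjusted p under 0.05) compared 3 KO-labelled with 5 WT-labelled libraries over 14755 genes. Each standard error is the size of the log2 change divided by the root of its F statistic. Alternatives used DESeq2 1.42.0, limma 3.58.1 (voom), other scaling and filters, thinning, a replicate block, and left-out libraries. The procedure was tested on simulated data. No 2 libraries of a group agreed within sampling noise (chi-square per degree of freedom at least 58.2). Totals of 4.31 to 18.0 M limit low genes, and floors of 3 counts cover counting error only, since reads carry no molecular identifiers. Coordinates and transcripts are from GENCODE M21 (GRCm38, the assembly of mm10). Of 122 list symbols, 119 matched by name and 3 by identifier. Figures were drawn with matplotlib 3.10.9.

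The members and lists were chosen with earlier results of these data known. The members were named in every case. From each other list came the genes past the threshold, up to 4, or the 2 with the highest mean level where none passed, and in addition the 5 protein-coding genes most alike to the summed members. Genes named outside this rule are marked as chosen after their values were seen, or are named for being at 0, as markers of the sorted cells or as defining markers.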

Additional observations from a re-analysis of the deposited data

Results flagged for a closer look

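In the 5 WT-labelled libraries, the gap between the most extreme library and its neighbour, as a share of the range, was examined for 43 genes and list sums. A share above 0.71 was taken as a library far from the others, which chance gives in about 1 in 20 groups of normally spread values, and 27 passed. Among all 13240 genes with at least 100 counts in a library and a spread in these 5, 37.2% passed, so such gaps were common in these data. WT-labelled replicate 4 was the outlying library for Nkg7 (0.969), Ccl5 (0.928), Cd8b1 (0.988), Gzma (1.0) and Klrd1 (1.0), for the sums of the 10 members (0.963), of the NK list (0.775), of the T cell receptor and CD3 list (0.741) and of the B cell list (0.888). The same library was outlying for Hcst (0.806), Fcer1g (0.741), Ighm (0.856), Ms4a1 (0.996), S100a9 (0.722), Ptprcap (0.902), Cd74 (0.944), Swi5 (0.839), Churc1 (0.87) and Ndufb5 (0.781). These last 5 genes were chosen for their likeness to the summed members, which are highest in that library, so their values are a description only. WT-labelled replicate 3 was the outlying library for Gzmb (0.998) and Eomes (0.996). WT-labelled replicate 5 was outlying for Prf1 (0.876), the gamma-delta list (0.838), Trgc1 (0.999), the erythroid list (0.998), Hba-a1 (1.0) and Hbb-bs (1.0). These genes and lists share libraries, so the flags are not independent of each other.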

How the results depend on the processing

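In all 18 alternatives, 0 members were called. DESeq2 gave no p for Nkg7, Ccl5 and Cd8b1, so it could not call them and the ranges of adjusted p below leave it out. Over all genes the count called was 0 with all libraries in edgeR and 0 in each fit that left out 1 library, and likewise with DESeq2's size factors, without WT-labelled replicates 4 and 5, and without WT-labelled replicates 2 and 3, whose library names in the labels begin with FY. It was 1 with library totals and no scaling factors, 1 with no filter, 1 with a mean of at least 5 CPM and 1 after thinning, 22 in limma-voom and 2421 in DESeq2. Fold changes moved with scaling: the median log2 change of all genes was −0.42 with TMM, −0.72 with DESeq2's size factors and 0.21 with library totals. Nkg7 was negative in 18 of 18 alternatives (−12.5 to −2.49) and Ccl5 in the 16 in which it was tested (−14.6 to −6.26), with adjusted p of 0.0819 to 0.731 and 0.216 to 0.727. Ccl5 was not tested with the replicate block or without WT-labelled replicates 4 and 5. Cd8b1 turned positive with library totals (0.53), in limma-voom (1.13), with the replicate block (1.42), without WT-labelled replicates 4 and 5 (2.93) and, among fits without 1 library (−3.75 to 3.13), without WT-labelled replicate 4. Klrk1 turned positive in limma-voom (1.95), with the replicate block (3.81), without WT-labelled replicates 4 and 5 (0.17) and, among fits without 1 library (−1.73 to 0.69), without WT-labelled replicate 5. The replicate block called 0 genes. Same-numbered libraries deviated with correlations of 0.017, 0.02 and 0.047, and not every library correlated best with its own. In libraries that differ this much, such values cannot decide whether same-numbered libraries share more than a number. Members with over 90% of their level in 1 library numbered 4, and 2 without WT-labelled replicate 4 (the choice was made after seeing the data). The cause of these shifts was not tested, other than the left-out libraries. Cd8a had 6 counts at most and was at 0 in the deepest library.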

Other observations

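Other genes of activated lymphocytes, chosen from the lists after their values were seen, also differed widely between libraries. Cxcr6, which encodes a chemokine receptor of tissue lymphocytes, had 0.175, 26.6 and 0.179 normalised CPM in KO-labelled replicates 1 to 3, and 12.9, 0.173, 2.69, 728 and 214 in WT-labelled replicates 1 to 5. Cst7, which encodes cystatin F, an inhibitor of the proteases that activate granzymes, had 54.3, 4.49 and 0.179 in the KO-labelled and 28.7, 65.4, 79.0, 762 and 125 in the WT-labelled libraries. Cst7 and Nkg7 were both highest in replicate 1 among the KO-labelled libraries and in replicate 4 among the WT-labelled ones. Fasl, which encodes a ligand that triggers death of target cells, had 0.612, 0 and 0.537 in the KO-labelled and 9.79, 6.76, 21.4, 0 and 267 in the WT-labelled libraries. It was highest in WT-labelled replicate 5, the library with the highest Prf1, and at 0 in WT-labelled replicate 4.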
